A study of Mus musculus with 8 samples.

Results

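The hormone genes of the pancreatic islet and the delta cell transcription factor gene Hhex are described here across wild-type and Irs2-deficient mouse islets with and without sodium tungstate. The 8 genes are Ins2, Iapp, Gcg, Sst, Hhex, Ppy, Pyy and Ghrl, chosen by name. Each was found through probe sets annotated to that gene alone, out of 18193 genes with such a probe set, and all 8 were among the 13369 genes that passed the filter on low values. Iapp had 4 probe sets, of which the highest was used, and the other members had 1 each. Ins1, the second mouse insulin gene, had no probe set naming it alone and was not analysed here. Whether the Ins2 probe set also reads Ins1 transcripts was not tested.

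Islets are clusters of endocrine cells, each type known by the peptide hormone it releases. Beta cells make insulin and co-release islet amyloid polypeptide, alpha cells make glucagon, which raises blood glucose, and delta cells make somatostatin, a paracrine brake on both of the others. PP cells make pancreatic polypeptide, rare epsilon cells make ghrelin, and peptide YY is found in several islet cell types. The homeobox factor Hhex is needed to keep the delta cell state in adult islets.

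The islets came from male C57Bl/6 mice, wild type or Irs2-/-, which lack insulin receptor substrate 2, an adaptor of insulin and IGF-1 receptor signalling. The sources used here give no details of the deletion. Mice drank distilled water or sodium tungstate dissolved in it for 21 days, from 10 to 13 weeks of age. The tungstate concentration is 2 mg/ml in the design text and 2 mg/dl in the sample labels. Each of the 4 groups held 2 arrays from separate samples, and the sources used here do not say if 1 mouse or several went into a sample. The p-values therefore cover only the spread among these samples, which may be technical. The values are log2 expression from the authors' robust multi-array average (RMA). Differences are log2 ± standard error (SE) from limma fitted to all 13369 genes, and a gene was called changed at a Benjamini-Hochberg adjusted p under 0.05. RNA was taken from whole islets, so fewer cells of a type and less RNA per cell cannot be told apart.

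The targeted gene followed the labels, with Irs2 between 7.61 and 7.91 on the 4 wild-type arrays and between 4.54 and 4.89 on the 4 Irs2-/- arrays. The arrays correlated at 0.955 to 0.994 over the probe sets, and no 2 were identical. Markers of other cells also differed between the groups. The mean level of 14 acinar enzyme markers lay between 8.89 and 11.65 on the wild-type and between 10.99 and 12.00 on the Irs2-/- arrays, with the lowest value on untreated wild-type replicate 1. The mean of 10 macrophage markers was 8.79 and 9.03 on the untreated Irs2-/- arrays and 7.27 to 7.73 on the other 6. The mean of 9 beta cell markers was 12.02 to 12.11 in wild-type islets, 10.80 and 10.99 in untreated Irs2-/- islets, and 11.07 and 11.64 in treated Irs2-/- islets. The defining beta cell markers were therefore present on every array.

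In untreated mice, the comparison of the genotypes asked which islet hormone genes differ without Irs2. Sst and Hhex fell, and none of the 8 members rose. That is 2 of 8, where 16.8% of all tested genes were called, 8.52% lower and 8.27% higher. The values of the genotypes did not overlap for 7 of the 8 members, all but Pyy, and for 60.6% of all tested genes. The median difference was -0.10 over the members and -0.01 over all tested genes.

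**Figure D1:**
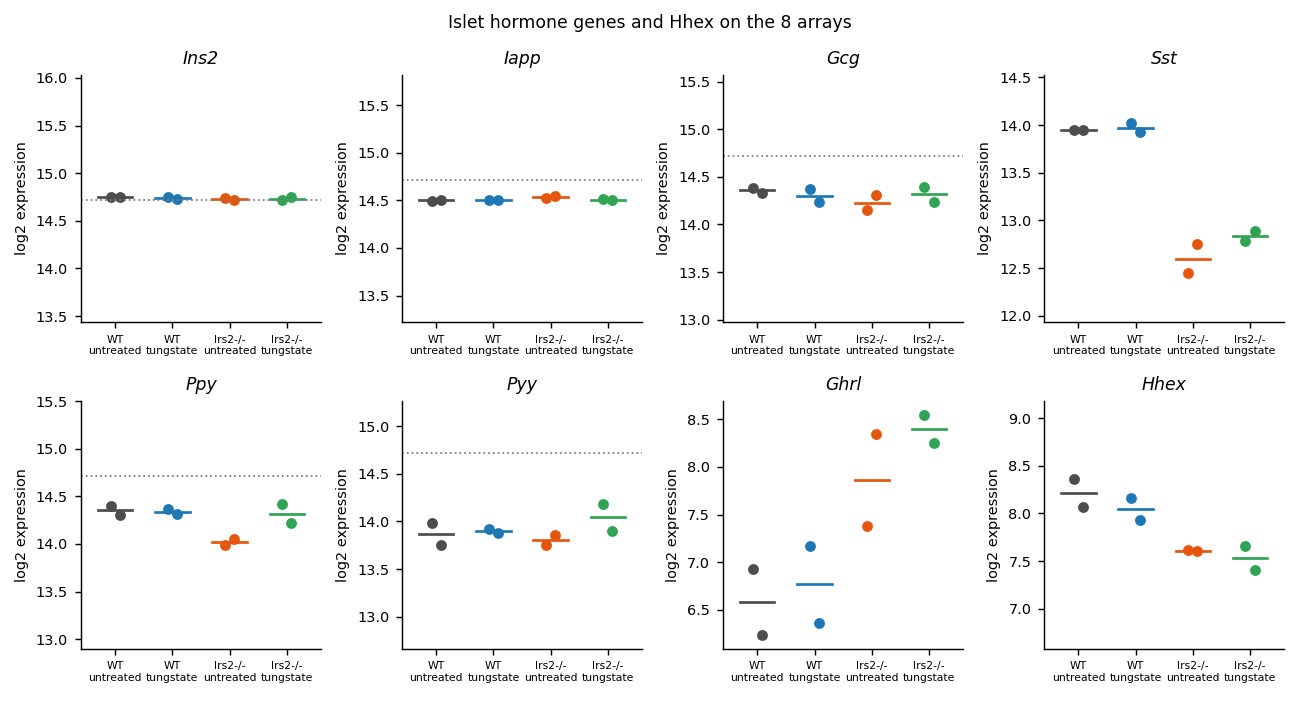
Log2 expression (vertical axis, the same span in each panel) of the 8 members on each of the 8 arrays, by group along the horizontal axis. Points are arrays, bars are group means, and the dotted line marks the lowest of the arrays' maximum values. Ins2 and Iapp lie flat near that line, Sst and Hhex are lower and Ghrl is higher in the Irs2-/- groups.

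Sst encodes the precursor of somatostatin, and its difference in untreated mice was close in size to that of Ghrl and larger than those of the other members. It read 13.95 and 13.95 in untreated wild-type islets, 14.02 and 13.93 with tungstate, 12.44 and 12.75 in untreated Irs2-/- islets, and 12.79 and 12.88 in Irs2-/- islets with tungstate. Every Irs2-/- array lay more than 1 log2 unit below every wild-type array. In untreated mice Sst fell by 1.35 ± 0.13 (limma adjusted p = 0.00181), which is 2.55-fold lower, with a 95% interval of 2.07 to 3.15-fold, and leaves 39.2% of the wild-type level. In treated mice it was 2.2-fold lower (-1.14 ± 0.13, limma adjusted p = 0.0199), at 45.5% of the treated wild-type level. This second call did not hold without treated wild-type replicate 1 (-1.09, limma adjusted p = 0.189), without treated wild-type replicate 2 (-1.18, adjusted p = 0.17) or without treated Irs2-/- replicate 1 (-1.09, adjusted p = 0.0835). Sst was the only 1 of the 8 members called in treated mice, where 1.02% of all tested genes were called and 0.389% were called lower. The values of 3 members, Sst, Hhex and Ghrl, did not overlap there, as for 48.1% of all tested genes. With both treatments averaged, 4 arrays against 4, Sst fell by 1.24 ± 0.09 (limma adjusted p = 0.00049), to 42.2% of wild type. The averaged contrast is built from the same arrays as the other contrasts.

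Hhex, the factor on which Sst-producing delta cells depend, was the other member that fell. Its arrays read 8.36 and 8.07 in untreated wild-type islets, 8.17 and 7.93 in treated wild-type islets, 7.61 and 7.61 in untreated Irs2-/- islets, and 7.65 and 7.40 in treated Irs2-/- islets. All 4 Irs2-/- values lay below all 4 wild-type values, the nearest being 7.65 and 7.93. In untreated mice Hhex fell by 0.60 ± 0.15 (limma adjusted p = 0.0337), to 65.8% of the wild-type level, with a 95% interval of 1.19 to 1.94-fold lower. The difference in treated mice was -0.52 ± 0.15 and did not pass (limma adjusted p = 0.144). Averaged over treatment, Hhex fell by 0.56 ± 0.11 (limma adjusted p = 0.0102).

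The untreated Hhex call lay close to the threshold. It was lost without untreated wild-type replicate 1 (-0.46, limma adjusted p = 0.173) or 2 (-0.75, adjusted p = 0.0596), and without untreated Irs2-/- replicate 1 (-0.61, adjusted p = 0.108) or 2 (-0.60, adjusted p = 0.0928). It was also lost without either treated wild-type array (-0.60, adjusted p = 0.0557). With the acinar marker level as a covariate the Hhex difference was -0.45 ± 0.16 (limma adjusted p = 0.116) in untreated mice and -0.42 averaged over treatment (adjusted p = 0.0677). Sst was called under that covariate in both contrasts.

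The sequences just before the start sites of Sst, Hhex and Gcg are shown because Sst and Hhex are the called members and Gcg is a hormone gene that was not called. They are the 250 bases upstream of each start in RefSeq (GRCm38.p6), 5′ to 3′ on the gene's strand. Sst is at chr16:23890845-23891094 on the minus strand, Hhex at chr19:37434591-37434840 on the plus strand, and Gcg at chr2:62483654-62483903 on the minus strand. Capitals mark TGACGTCA, the palindromic cAMP response element, and TAAT or its reverse complement ATTA, the core bound by many homeobox factors.
Sst: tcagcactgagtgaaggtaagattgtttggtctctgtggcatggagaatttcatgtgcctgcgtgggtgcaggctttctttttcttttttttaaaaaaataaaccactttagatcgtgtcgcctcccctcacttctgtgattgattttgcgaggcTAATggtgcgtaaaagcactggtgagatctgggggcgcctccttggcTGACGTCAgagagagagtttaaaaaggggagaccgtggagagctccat
Hhex: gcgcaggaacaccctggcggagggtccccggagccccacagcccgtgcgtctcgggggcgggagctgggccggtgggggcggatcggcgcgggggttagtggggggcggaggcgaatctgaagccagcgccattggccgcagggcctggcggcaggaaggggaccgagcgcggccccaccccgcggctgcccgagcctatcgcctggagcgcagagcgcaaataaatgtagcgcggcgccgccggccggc
Gcg: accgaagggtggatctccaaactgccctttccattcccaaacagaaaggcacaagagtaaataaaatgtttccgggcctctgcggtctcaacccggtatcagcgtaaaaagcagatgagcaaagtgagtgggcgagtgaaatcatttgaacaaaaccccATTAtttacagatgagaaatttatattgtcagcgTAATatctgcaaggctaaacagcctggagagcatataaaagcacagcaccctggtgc
Both strands were searched, and the 2 motifs do not overlap here. The Sst window holds TGACGTCA from 48 to 41 bases before the start and TAAT from 95 to 92 bases before it. TGACGTCA occurs in 1.55% of 32851 windows of this length, and Sst was the only 1 of the 7 members with an entry that holds it. TAAT or ATTA occurs in 54.9% of windows. The Gcg window holds ATTA at 91 to 88 and TAAT at 57 to 54 bases before the start. The Hhex window, with 76% G and C against 47.2% for Sst and 44.8% for Gcg, has neither string. A match is a string of letters only, and binding was not measured.

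Other delta cell genes were counted beside Sst and Hhex. Of the 7 tested genes of a delta cell list of 10, Sst and Hhex fell in untreated mice and none rose, and the median over the 7, Sst and Hhex included, was -0.04. In that contrast 16.8% of all tested genes were called. At an unadjusted p under 0.05, limma named 5 of the 7, and 4440 of all 13369 genes. Rbp4, a retinol carrier abundant in delta cells, was at 0.33 ± 0.19. The leptin receptor gene Lepr was at 0.32 ± 0.12 (limma adjusted p = 0.106). Casr, which encodes the calcium-sensing receptor, was at 0.29 ± 0.13 in untreated mice (limma adjusted p = 0.150) and rose by 0.41 ± 0.09 with both treatments averaged (adjusted p = 0.0164). F5, coagulation factor V, was at -0.42 ± 0.17 (limma adjusted p = 0.124), and the gastrin receptor gene Cckbr at -0.04 ± 0.18. The ghrelin receptor gene Ghsr, the urocortin receptor gene Crhr2 and the dopamine receptor gene Drd2 lay below the filter. None of the 5 tested list genes other than Sst and Hhex was called by limma in untreated mice.

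**Figure D2:**
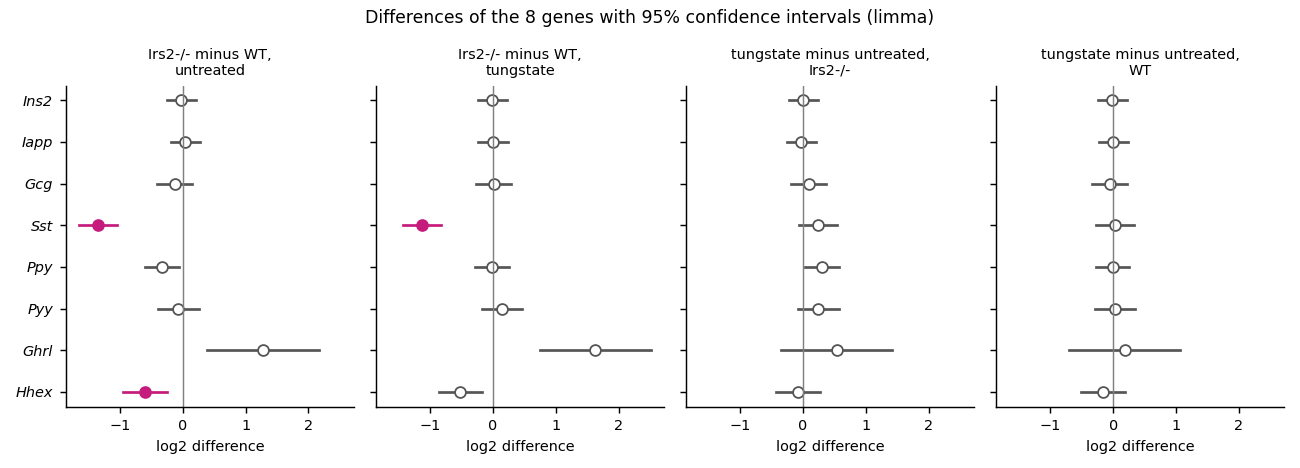
Log2 difference (horizontal axis) of each member in the contrasts between genotypes and between treatments, with 95% intervals from limma. Filled points have an adjusted p under 0.05. Sst is filled in both genotype contrasts, Hhex in untreated mice, and no member in the tungstate contrasts.

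Ins2 and Iapp, the hormone genes of beta cells, differed between the untreated genotypes by small amounts that did not pass the test. Their 2 values per genotype did not overlap, and the SE given by limma is pooled over groups and moderated, so it is wider than the spread of these arrays. Ins2 read 14.75 and 14.75, then 14.75 and 14.73 on the wild-type arrays, and 14.74 and 14.72, then 14.72 and 14.75 on the Irs2-/- arrays, untreated first. It was the highest probe set of every array, and its 8 values spanned 0.0394. The genotype difference in untreated mice was -0.03 ± 0.10, with a 95% interval of -0.26 to 0.21. The used Iapp probe set ranked 3rd on every array and spanned 0.05, with a difference of 0.04 ± 0.10 (95% interval -0.20 to 0.27). The other 3 Iapp probe sets, at means of 13.92, 13.89 and 10.00, differed by -0.09, 0.02 and -0.06, and none was called. The lowest of them lay more than 4 log2 units under the array maximum and read 9.88 and 10.06 in untreated wild-type and 9.99 and 9.84 in untreated Irs2-/- islets.

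The position of a member on the array's scale bears on these values. The array maxima lay between 14.72 and 14.75. Of 7 tested genes with a mean of 14 or more, none was called by limma in untreated mice, the median size of the difference was 0.0399, and the largest was 0.33, for Ppy. Of 33 genes with means from 13 to 14, 5 were called (15.2%), and Sst had the largest difference among them. Shares of 14.9% to 21.4% were called in the 4 ranges below 13. Ins2, Iapp, Gcg and Ppy are in the top range, Pyy and Sst in the next, and Ghrl and Hhex below 8. The part that the upper end of the scale has in the small differences of the top 4 was not tested. On the wild-type arrays Sst lay 0.73 to 0.81 log2 units under the array maximum. The part of the scale in the size of its difference was not tested either. Of the 9 tested beta cell markers, which include Ins2 and Iapp, 6 fell in untreated Irs2-/- islets, with a median of -1.21 over the 9, where 16.8% of all tested genes were called.

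**Figure D3:**
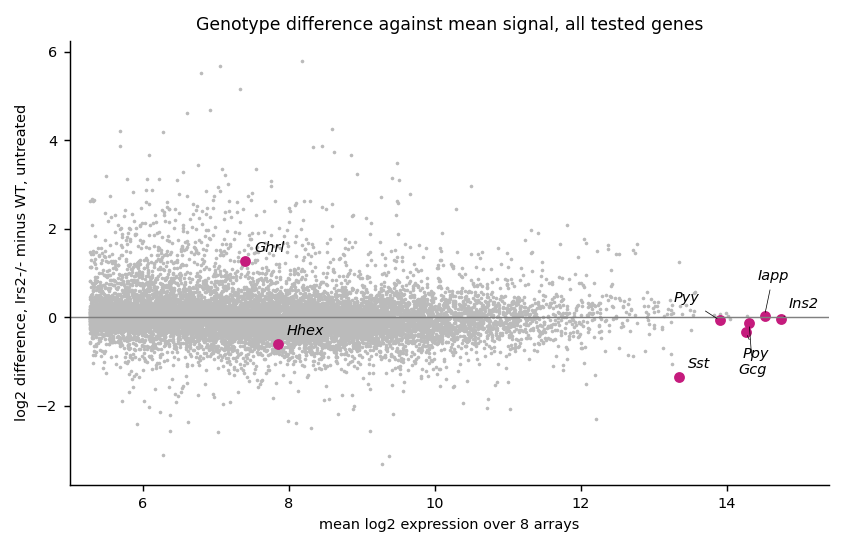
Log2 difference between the genotypes in untreated mice (vertical axis) against the mean log2 level over the 8 arrays (horizontal axis) for the tested genes, with the 8 members named. Ins2, Iapp, Gcg and Ppy sit at the right end, where differences are small, and Sst lies lowest among the genes above 13.

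Gcg, which encodes proglucagon, read 14.38 and 14.33, then 14.37 and 14.24 on the wild-type arrays, and 14.15 and 14.31, then 14.39 and 14.24 on the Irs2-/- arrays. The treated groups overlapped, and the untreated groups were apart only by the distance from 14.31 to 14.33. The difference was -0.13 ± 0.12 in untreated mice (95% interval -0.41 to 0.15, limma adjusted p = 0.498) and 0.01 ± 0.12 in treated mice. Among 8 tested alpha cell genes of a list of 12, 1 rose and 1 fell in untreated mice, where 16.8% of all tested genes were called. Slc38a5, a glutamine transporter whose expression in alpha cells is known to respond to amino acids, rose by 3.75 ± 0.37, and Dpp10, a potassium channel accessory protein, fell by 2.59 ± 0.29. Both were called in treated mice too, at 2.91 and -2.50. The alpha cell factor gene Irx2 was at -0.49 ± 0.26 in untreated mice (limma adjusted p = 0.234).

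Ppy and Pyy, neighbouring genes on chromosome 11 for related peptides, were high in every group. Ppy read 14.40 and 14.30, then 14.36 and 14.32 on the wild-type arrays, and 13.98 and 14.05, then 14.42 and 14.22 on the Irs2-/- arrays. The untreated Irs2-/- arrays were the lowest 2, and the treated Irs2-/- arrays lay just above and just below the wild-type range. The untreated difference between genotypes was -0.33 ± 0.12 (95% interval -0.60 to -0.07) and did not pass (limma adjusted p = 0.0878). It passed with a variance trend and robust moderation (limma adjusted p = 0.0446). In treated mice it was -0.02 ± 0.12. Pyy read 13.99 and 13.75, then 13.92 and 13.88 on the wild-type arrays, and 13.75 and 13.85, then 14.18 and 13.90 on the Irs2-/- arrays. Its differences were -0.07 ± 0.14 in untreated and 0.15 ± 0.14 in treated mice, and the arrays of a group differed from each other by more than that in 2 of the 4 groups.

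Ghrl, which encodes ghrelin, was the member that varied most between arrays. It read 6.93 and 6.24, then 7.17 and 6.36 on the wild-type arrays, and 7.38 and 8.34, then 8.55 and 8.25 on the Irs2-/- arrays. All 4 Irs2-/- values were above all 4 wild-type values, although the nearest were 7.38 and 7.17. With both treatments averaged, Ghrl rose by 1.45 ± 0.27 (limma adjusted p = 0.00951), which is 2.74-fold, with a 95% interval of 1.78 to 4.23-fold. In that averaged contrast 2 members fell and 1 rose, where 22.1% of all tested genes were called, and the arrays of 3 members did not overlap, as for 24% of all tested genes. In untreated mice the difference was 1.28 ± 0.38 and did not pass (limma adjusted p = 0.0573). It did not pass in treated mice either (1.63 ± 0.38, limma adjusted p = 0.0897). The untreated value moved from 0.80 without untreated Irs2-/- replicate 2 to 1.76 without untreated Irs2-/- replicate 1, where it was called (limma adjusted p = 0.0476).

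Ghrelin is also made by enteroendocrine cells. The mean of 6 enteroendocrine markers was 4.77 to 4.92 in wild-type islets, 6.12 and 6.37 in untreated Irs2-/- islets and 5.54 and 5.58 in treated Irs2-/- islets. Only 2 of these markers passed the filter, 1 of which rose in untreated mice, and Gip and Nts lay below the filter level on every array. The gastrin gene Gast had by far the widest range over the arrays, 4.53 to 10.26. The ranges were 6.22 to 6.83 for Sct, 4.70 to 6.49 for Cck and 4.26 to 5.82 for Tph1. The marker mean therefore largely follows Gast. The part of these markers in the Ghrl result was not tested. A list of 11 genes held Ghrl, Ppy, Pyy, the neuropeptide Y gene Npy, and genes for their receptors and processing. The 5 tested were Ghrl, Ppy, Pyy, Npy and Dpp4, and none was a receptor gene. In untreated mice limma called none of the 5, where 16.8% of all tested genes were called. The members Ghrl and Ppy were the 2 with an unadjusted p under 0.05, as had 4440 of all 13369 genes. The ghrelin acyltransferase gene Mboat4, Ghsr and the 4 neuropeptide Y receptor genes lay below the filter.

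Tungstate in Irs2-/- mice asked whether treatment moves the hormone genes of the deficient islets, and limma called none of the 8 members, where 0.494% of all tested genes were called. At an unadjusted p under 0.05 it named 1 member, Ppy, and 1780 of 13369 genes. Ppy was higher by 0.30 ± 0.12 in treated Irs2-/- islets, from 13.98 and 14.05 to 14.42 and 14.22 (unadjusted p = 0.0323, limma adjusted p = 0.318). Sst was at 0.24 ± 0.13, with a 95% interval of -0.07 to 0.54, and Pyy at 0.24 ± 0.14. Ghrl was at 0.54 ± 0.38, with an interval of -0.35 to 1.42. Gcg was at 0.09 ± 0.12, Hhex at -0.08 ± 0.15, Iapp at -0.03 ± 0.10 and Ins2 at 0.00 ± 0.10. The arrays of 4 of the 8 members did not overlap between treated and untreated Irs2-/- mice, as for 40.5% of all tested genes. Treated Irs2-/- islets still held less Sst than untreated wild-type islets (-1.11 ± 0.13, limma adjusted p = 0.0221), at 46.2% of that level. Sst was the only member called in that contrast, where 0.352% of tested genes were called, and the arrays of 4 members did not overlap, as for 50% of tested genes. The Sst call was lost without untreated wild-type replicate 1 (-1.11, limma adjusted p = 0.116) or 2 (-1.11, adjusted p = 0.108), without either treated wild-type array (-1.11, adjusted p = 0.0761) and without treated Irs2-/- replicate 1 (-1.07, adjusted p = 0.0932). The last contrast and that of tungstate in Irs2-/- mice share the treated Irs2-/- arrays.

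In wild-type mice limma called no member and 0% of tested genes for tungstate. At an unadjusted p under 0.05 it named none of the 8 members and 364 of 13369 genes. The widest differences were 0.18 ± 0.38 for Ghrl and -0.17 ± 0.15 for Hhex, and Sst was within 0.03 of no difference. The values did not overlap for 1 of the 8 members and for 37.1% of all tested genes. The test of whether tungstate acted differently in the genotypes called none of the members and 0.0224% of tested genes. At an unadjusted p under 0.05, limma named 0 members and 862 genes for this interaction. It was 0.31 ± 0.16 for Ppy (limma adjusted p = 0.816) and 0.22 ± 0.19 for Sst (95% interval -0.21 to 0.64).

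The receptors through which these hormones act on islet cells were counted next. Of 16 listed genes for receptors and their Ramp partners 11 were tested. In untreated Irs2-/- islets 2 rose, both of them Ramp genes, and 4 receptor genes fell. The median was -0.18, beside -0.01 over all genes. Over all tested genes, 8.27% rose and 8.52% fell. Sstr2, a main somatostatin receptor of alpha cells, fell by 0.64 ± 0.11 (limma adjusted p = 0.0121), while Sstr3 was at -0.19 ± 0.24 and Sstr5, the somatostatin receptor prominent in beta cells, at 0.09 ± 0.13. The incretin receptor genes fell, with differences of -1.78 ± 0.34 for Glp1r (limma adjusted p = 0.0136) and -1.08 ± 0.19 for Gipr (adjusted p = 0.0111). In untreated Irs2-/- islets Sstr2 read 5.38 and 5.50 and Glp1r 5.44 and 5.38, close to the filter level of 5.27. Gipr read 6.01 and 6.35 there, and Insr 8.02 and 7.95. The insulin receptor gene Insr fell by 0.47 ± 0.13 (limma adjusted p = 0.0484). Ramp1 and Ramp2, which encode single-pass partners of the calcitonin receptor family, rose by 1.04 ± 0.15 and 1.69 ± 0.20. The calcitonin receptor gene Calcr itself lay below the filter, at 4.01 to 4.31 over the arrays, and was not tested. Ramp2 is also abundant in endothelium, and the mean of 9 endothelial markers was 8.16 and 8.22 in untreated wild-type and 8.55 and 8.54 in untreated Irs2-/- islets. Its part in the Ramp2 result was not tested. Without untreated wild-type replicate 1 or 2, 1 receptor gene fell, and without untreated Irs2-/- replicate 1, 0 fell by limma, with 2 that rose each time and 5 to 7 of the 11 at an unadjusted p under 0.05. Without untreated replicate 1 of each genotype, 0 rose and 1 fell, and 5 had an unadjusted p under 0.05.

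Genes that cut and pack prohormones moved in both directions. Of 14 tested processing genes, 2 rose and 3 fell in untreated mice, with a median of 0.02. In that contrast 8.27% of all tested genes rose and 8.52% fell. The proinsulin convertase gene Pcsk1 rose by 0.59 ± 0.14 (limma adjusted p = 0.0257) and its inhibitor gene Pcsk1n fell by 0.52 ± 0.13 (adjusted p = 0.0305). Ero1b, an oxidase that helps form the disulphide bonds of proinsulin, fell by 0.82 ± 0.15 (limma adjusted p = 0.0129). Qpct, which forms pyroglutamate ends on peptides, rose by 1.16 ± 0.27 (adjusted p = 0.0274). Leaving out untreated wild-type replicate 1 or 2, or untreated Irs2-/- replicate 1, left none of the processing genes called by limma, while 5 to 7 had an unadjusted p under 0.05. Without either treated wild-type array 1 rose and 1 fell, and without untreated Irs2-/- replicate 2, 3 rose and 1 fell. Of 13 secretory granule genes, 4 rose and 2 fell in untreated mice, with a median of 0.04, where 16.8% of all tested genes were called. Vgf, a granule peptide precursor, rose by 3.23 ± 0.16 (limma adjusted p = 0.0002), and Slc30a8, the zinc transporter of insulin granules, fell by 1.5 ± 0.22. The granule genes Chgb, Scg3 and Ptprn rose by 0.57 ± 0.13, 0.56 ± 0.14 and 1.14 ± 0.20, and Sytl4 fell by 2.03 ± 0.31. Without untreated wild-type replicate 1 or untreated Irs2-/- replicate 1, 1 granule gene rose, and without untreated wild-type replicate 2 or either treated wild-type array 2 rose, with 2 that fell in each case. Vgf was the only gene of these lists called for tungstate in Irs2-/- mice, where it fell by 1.32 ± 0.16 (limma adjusted p = 0.0185). That call was lost without untreated Irs2-/- replicate 1, without either treated wild-type array, with only the arrays compared, and without untreated replicate 1 of each genotype.

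**Figure D4:**
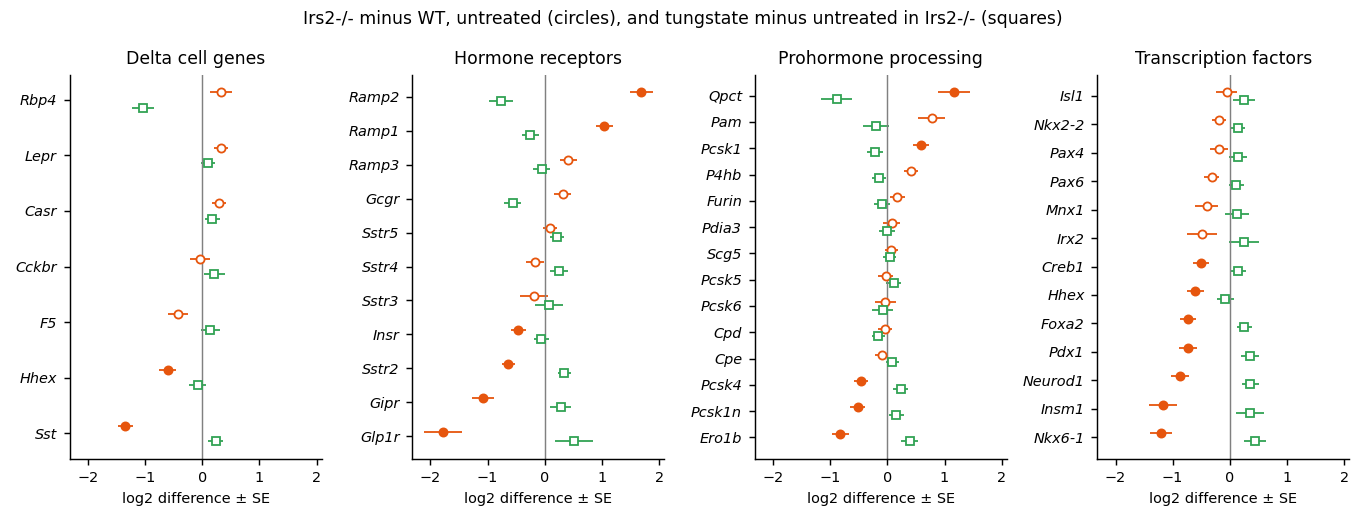
Log2 difference ± SE (horizontal axis) of delta cell, receptor, processing and transcription factor genes. Circles are the genotype contrast in untreated mice and squares are tungstate in Irs2-/- mice, and filled symbols have a limma adjusted p under 0.05. No square is filled.

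Transcription factors that set islet cell identity were counted last. Of 13 tested factor genes, 7 fell and none rose in untreated mice, where 8.52% of all tested genes fell and 8.27% rose, and their median was -0.50. These 7 were Hhex, Nkx6-1 (-1.21 ± 0.19), Pdx1 (-0.74 ± 0.16), Neurod1 (-0.87 ± 0.15), Insm1 (-1.17 ± 0.25), Foxa2 (-0.73 ± 0.13) and Creb1 (-0.50 ± 0.14, limma adjusted p = 0.0420). Nkx6-1 and Pdx1 maintain beta cells, and Neurod1, Insm1 and Foxa2 act across endocrine cells. Creb1 binds the cAMP response element printed above for Sst. With the acinar level as a covariate, 5 of the 13 factor genes fell, and Hhex was not called. The 2 factors Pdx1 and Nkx6-1 are also among the beta cell markers. Without untreated wild-type replicate 1 or 2, or without untreated Irs2-/- replicate 1, 2 fell, and none rose with any array left out. Without untreated replicate 1 of each genotype, the arrays with the lower acinar level of their groups, limma called 0 of them, and 6 had an unadjusted p under 0.05.

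**Figure D5:**
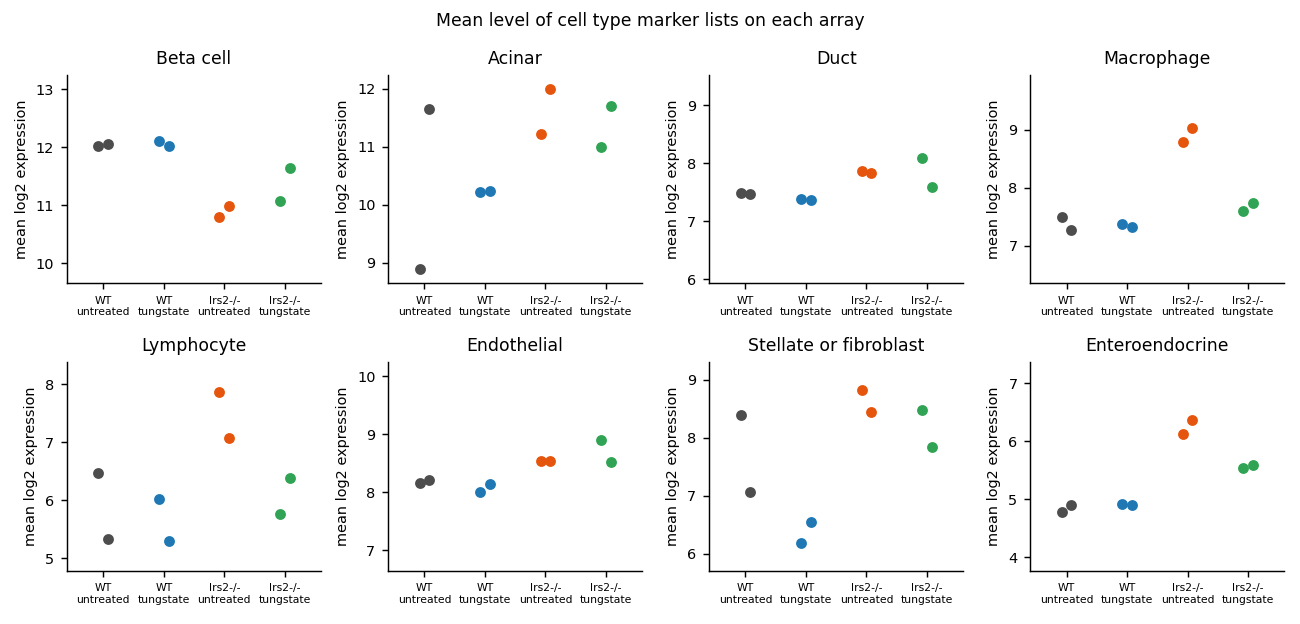
Mean log2 level (vertical axis, the same span in each panel) of marker lists of 8 cell types on each array, by group. Points are arrays. Beta cell markers are lower and macrophage markers higher in the untreated Irs2-/- group, and acinar markers spread widely within the untreated wild-type group.

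Markers of other cells differed between the untreated genotypes beside the Sst, Hhex and Ghrl results. In untreated mice 10 of 10 macrophage, 3 of 9 lymphocyte, 3 of 6 duct, 1 of 14 acinar, 1 of 9 endothelial and 1 of 8 stellate markers rose, and none fell in these lists. Over all tested genes, 8.27% rose and 8.52% fell. Called or not, every tested macrophage, lymphocyte, duct, acinar and stellate marker was higher in untreated Irs2-/- islets, as were 8 of 9 endothelial markers. The medians were 1.49 for macrophage, 2.09 for lymphocyte, 0.46 for duct, 1.47 for acinar, 0.31 for endothelial and 0.85 for stellate markers. Over all tested genes the median was -0.01. With tungstate in Irs2-/- mice 6 of the 10 macrophage markers fell, where 0.494% of all tested genes were called. No other marker of these lists was called for tungstate there. Of the 2 tested enteroendocrine markers, 1 fell with tungstate in Irs2-/- mice. With the acinar level as a covariate, Sst and, averaged over treatment, Ghrl were called and Hhex was not. The 3 control probe sets of 18S ribosomal RNA averaged 11.05 and 10.63 in untreated Irs2-/- islets, below the other 6 arrays at 11.12 to 12.70. The part of 18S and of the other lists in the member results was not tested.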

How the data were processed

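RNA from mouse islets was measured on 8 arrays with 45101 probe sets. Per the submitters' processing notes, the authors made the deposited log2 values with RMA (affy, R 2.7.0). Per the labels, total RNA came from RNeasy columns and was made into biotinylated cRNA. Raw arrays and scan dates were not used here. The number of arrays limits the precision.

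Of 45037 probe sets besides controls, 34945 named 1 gene, 932 several and 9160 none, and 34741 were matched to RefSeq by gene number. Each gene took its probe set with the highest mean. Genes with a mean under the 40th percentile (log2 5.27) were left out, which left 13369 of 18193. A mean for each of 4 groups was fitted with limma 3.58.1 (R 4.3.3, with the data.table package at version 1.17.8), with 4 residual and 3.89 prior degrees of freedom. Benjamini-Hochberg adjustment ran over all tested genes, separately for 8 contrasts, and 0.05 was the threshold. The workflow was tested on simulated data. Named genes are the 8 members, Irs2, members of the gene and marker lists, and the 5 genes most correlated with a member. The members and lists were chosen with earlier results of these data known. Alternatives were other filters, probe set rules, scalings, moderation, thresholds, a replicate block, an acinar covariate, only the arrays compared, and leaving out arrays.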

Additional observations from a re-analysis of the deposited data

How the results depend on the processing

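Sst in untreated mice was called under all 22 alternatives tried, at -1.51 to -1.20. Of the 8 members, 2 were called for the genotype in untreated mice, against 1 with only the arrays compared, 1 with the acinar covariate, 3 with a variance trend and robust moderation, 4 at an adjusted p under 0.1, 1 at 2-fold or more, and 1 to 2 when each array was left out in turn. In treated mice 1 was called, against 2 at an adjusted p under 0.1 and 0 to 1 with an array left out. For treated Irs2-/- against untreated wild type 1 was called, against 0 with only the arrays compared, 3 at an adjusted p under 0.1, 0 without untreated replicate 1 of each genotype, and 0 to 1 with an array left out. Fewer arrays carry fewer degrees of freedom; other causes were not tested. Over 1408 values of members and alternatives, 1377 kept their side of the threshold, 23 lost the call and 8 gained it. The sign changed in 81 values, none of them called. Over all genes the untreated genotype calls were 2245, and 652 to 2639 with an array left out, 3511 at an adjusted p under 0.1, 367 without untreated replicate 1 of each genotype and 2125 to 2177 under other scalings. In treated mice they were 137 and 3 to 679 with an array left out, and for tungstate in Irs2-/- mice 66 and 16 to 265. The labels do not say that replicate numbers pair the arrays. Deviations of same-numbered arrays correlated at -0.066 to 0.418 over 6 pairs of groups, 3 of them over 0.1, so pairing was not taken as shown. With the replicate number as a block, 2 members were called in untreated mice, as without it.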

Other observations

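The tested genes whose pattern over the 8 arrays was most like that of a member, by Pearson's r, were Pdzd4 (0.994) and Hmgn3 (0.993) for Sst, Nptx1 (0.986) for Hhex, Kcnh2 (0.970) and the alpha cell factor gene Irx2 (0.961) for Gcg, Dact2 (0.974) for Ppy, and Vwa5b2 (0.954) for Pyy. The 5 genes most like Ghrl included 4 that encode neuropeptide precursors, Grp (0.960), Adcyap1 (0.959), Vip (0.958) and Tac1 (0.957). The arrays of a pair of genes share their groups, and 790 genes correlated with Sst at over 0.9, against 37 with Ghrl and 4 with Pyy, so a high r is a description of the 8 arrays. Among the members, r was 0.874 for Sst and Hhex, -0.780 for Sst and Ghrl and 0.763 for Gcg and Ppy.

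Chosen after its values were seen, Rbp4 read 11.61 and 12.01 in Irs2-/- islets without and 10.88 and 10.67 with tungstate, against 11.25 to 11.62 in wild-type islets. The tungstate difference in Irs2-/- mice was -1.04 ± 0.19 and did not pass (limma adjusted p = 0.086), and the interaction was -0.98 ± 0.27 (limma adjusted p = 0.621). The glucagon receptor gene Gcgr, likewise chosen after its values were seen, read 8.32 and 8.67 in Irs2-/- islets without and 8.03 and 7.83 with tungstate (-0.57 ± 0.15, limma adjusted p = 0.166).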
